A study of Mus musculus with 61 samples.

Results

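The data compared mouse embryos labelled Klf17 KO with wild-type controls, as 3 KO libraries against 3 control libraries across all 22911 genes of the deposited count table; these are 6 of the 61 samples of the series. All embryos came from in vitro fertilisation of eggs from superovulated females, and were collected at the stage the submitters call M2C after 6 h in 2 mM 4-thiouridine (4SU), a uridine analogue that enters newly made RNA; the study's design gives 10 embryos per library. The assay was SLAM-seq, in which alkylation of 4SU marks new transcripts by T-to-C changes, on polyA RNA with a modified Smart-seq2 protocol. The groups used were Klf17 KO (KO, 3 libraries), Klf17 maternal KO (mKO, 3 libraries), Klf17 paternal KO (pKO, 2 libraries) and WT (ctrl, 3 libraries), and every group received 4SU. The labels do not describe the mutant allele, the crosses or the strain, and nothing says that the libraries of a group came from separate collections, so each p-value speaks of the scatter among the libraries at hand, which may be technical. Whether reads without T-to-C changes were counted is not given in the sources used here, so a level below stands for reads of a gene and not for new RNA.

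KLF17 belongs to the KLF and SP family of zinc finger transcription factors, which bind GC-rich CACCC-like elements in promoters. Its RNA is abundant in mouse oocytes and early embryos. In the mouse the embryonic genome is silent after fertilisation, is transcribed weakly in the zygote and strongly at the 2-cell stage, while transcripts stored in the egg are degraded. The first genes made in bulk include those for ribosome assembly, RNA processing and translation. The comparison addressed the function of KLF17 during this activation, per the study's design.

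Klf17 RNA did not pass the test for a difference in the libraries labelled KO. Levels are in CPM, a gene's reads as a share of the counted reads of its library, on one scale for all libraries. Klf17 (ENSMUSG00000048626, chr4:117756659-117765666 in GRCm38.p6) had 673, 603 and 728 CPM in KO libraries, 359, 845 and 794 CPM in mKO libraries, 812 and 1015 CPM in pKO libraries, and 596, 805 and 746 CPM in control libraries. The KO and control ranges overlapped, and the difference was a log2 fold change of -0.10 (SE 0.30, adjusted p = 0.869). Against mKO the adjusted p was 0.998 and against pKO it was 0.374. An RNA level cannot check an allele that leaves the transcript in place, so the KO label was neither borne out nor contradicted by it, and below "KO" always means the libraries so labelled.

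The libraries held 14080264 to 15631152 counted reads in KO and 17858094 to 19876670 in control. Transcripts encoded by the mitochondrial genome took 11.4%, 9.05% and 5.92% of reads in KO libraries, against 4.18%, 3.23% and 3.55% in control libraries. The 20 highest genes took 15.5% ± 3.59 of reads in KO and 8.53% ± 1.22 in control (SD, n = 3 each). Each of these measures separated the groups (exact two-sided permutation p = 0.1, the smallest that 3 against 3 allows). The number of genes with a read was 17875 ± 963 in KO and 17641 ± 232 in control (SD, n = 3 each, exact permutation p = 0.9). Across genes, KO libraries correlated at r = 0.944 to 0.954 with each other, control libraries at 0.968 to 0.980. Of the mKO libraries, replicate 1 stood apart: it correlated at 0.943 to 0.954 with KO libraries and at 0.913 and 0.940 with the other two mKO libraries. Summed over 23 cumulus and granulosa markers, levels were 136 to 333 CPM in KO and 217 to 271 CPM in control. Of the cumulus, sperm and blood cell markers, 16, 10 and 4 had enough reads to be tested, and no gene passed. Sums over 20 sperm and spermatid markers were 142 to 165 CPM in KO and 123 to 129 CPM in control, without overlap, and sums over 8 blood cell markers were 35.7 to 53.6 CPM in KO and 22.99 to 37.9 CPM in control. Fshr of granulosa cells and Tnp2 of spermatids had 0 reads in all 11 libraries. In contrast, Serpine2 of the first list was at 94.97 to 229 CPM and Odf2 of the second at 67.3 to 123 CPM. Odf2 made up most of each sperm and spermatid sum, at 110 to 123 CPM in KO and 75.0 to 93.0 CPM in control. Amhr2 of the first list was at 12.9 to 29.4 CPM in KO and 49.3 to 70.4 CPM in control. Hsd3b1 and Cyp11a1 were at 35.4 and 13.8 CPM in control replicate 2, and at most 0.384 and 0.709 CPM in any other library. These marker levels are plain shares of all counted reads, without the scaling between libraries used for other levels. With such scaling, Odf2 averaged 210 CPM in unfertilised (MII) oocytes of the series. The part of such cells in the results was not tested. The egg gene Bmp15 and the early embryo gene Obox6 were at 944 and 279 CPM or more in every KO and control library.

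More genes fell than rose in KO embryos. Of 16694 genes tested, 304 rose and 1054 fell at an adjusted p below 0.05, which is 1.82% and 6.31% of the genes and 8.13% together. Rises were 22.4% of the calls here, 41.0% by DESeq2 (1057 rose, 1519 fell) and 37.3% in a fit of the 6 libraries alone (1182 rose, 1984 fell). Among the gene lists, ribosome biogenesis genes had the largest share of falls, and the genes that rose included the stress factor Atf3, the embryonic peptide gene Apela and mitochondrially encoded transcripts. The median log2 fold change over all genes tested was 0.05. Of the genes called, 293 that rose and 1019 that fell changed by at least 1 on the log2 scale. In bulk embryos, fewer cells of a type and less RNA per cell cannot be told apart. Values are relative to the RNA of each library, so a fall of all transcripts together would not be seen. The number called depended on which libraries were in the fit: it was 269 without KO replicate 1, 0 without KO replicate 2 (3235 genes then had an unadjusted p below 0.05, against 4295 with all libraries), 586 without KO replicate 3, 892 without control replicate 1, 270 without control replicate 2 and 188 without control replicate 3. Without mKO replicate 1, whose spread enters the shared estimate, 2425 genes were called, and without mKO replicate 2 2062. With the mitochondrial share of each library as a covariate 0 genes were called, and 1424 had an unadjusted p below 0.05.

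Stmn3, Gata1 and Fbxo6 were among the 15 genes with the lowest fold changes. Stmn3, a stathmin family protein that acts on microtubules, had 9.43, 14.9 and 8.24 CPM in KO libraries, against 138, 165 and 158 CPM in control libraries (log2 fold change -3.82, SE 0.52, adjusted p = 0.00661). Gata1, a zinc finger transcription factor best known from red blood cell formation, had 16.5, 15.4 and 18.3 CPM in KO and 142, 187 and 180 CPM in control (-3.34, SE 0.55, adjusted p = 0.00661). Fbxo6, a substrate receptor of an SCF ubiquitin ligase, had 5.74, 3.58 and 2.24 CPM in KO and 50.5, 52.5 and 34.6 CPM in control (-3.57, SE 0.49, adjusted p = 0.00661). No KO library reached the lowest control library for any of these 3 genes, which was a condition for naming them. KO lay below control without overlap in 20.7% of all genes tested. Within KO, Fbxo6 ran between 2.24 and 5.74 CPM, while the 3 Gata1 values were closer.

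Chromatin, autophagy and organelle genes were also among the 15 lowest. Smyd5, a SET and MYND domain methyltransferase, had 8.81, 14.3 and 7.51 CPM in KO, against 69.5, 134 and 108 CPM in control. Atg7, the E1-like enzyme of autophagosome formation, had 2.39, 5.56 and 4.84 CPM in KO, against 36.6, 51.7 and 39.5 CPM in control. Kdm8, a Jumonji-domain protein, had 0.137, 0.658 and 2.18 CPM in KO, against 7.47, 11.8 and 10.96 CPM in control. Their log2 fold changes were -3.34, -3.32 and -3.32, with adjusted p of 0.0139, 0.00819 and 0.032. Wars2, the mitochondrial tryptophanyl-tRNA synthetase, was close to undetected, with 0.0683, 0 and 0.727 CPM in KO and 10.7, 16.8 and 9.26 CPM in control (log2 fold change -5.43, SE 0.91). Cln8, an endoplasmic reticulum protein that helps lysosomal enzymes leave it, had 0.205, 1.17 and 3.09 CPM in KO and 7.98, 18.7 and 20.9 CPM in control. Zfp977, a zinc finger gene, had 3.35, 0.878 and 3.33 CPM in KO and 28.8, 27.3 and 27.2 CPM in control.

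Several of the lowest genes are best known from other tissues. Apol7e, of the apolipoprotein L family, had the lowest fold change: 0.41, 0 and 0.666 CPM in KO and 13.5, 25.6 and 16.8 CPM in control (log2 fold change -5.63, SE 0.97, adjusted p = 0.00663). Cpn1, the catalytic subunit of carboxypeptidase N, had 2.87, 0.439 and 1.51 CPM in KO and 16.5, 24.5 and 30.1 CPM in control. Shbg, sex hormone-binding globulin, had 3.55, 0.439 and 1.51 CPM in KO and 27.5, 12.4 and 17.5 CPM in control. Spesp1, a protein of the sperm equatorial segment, had 0, 2.27 and 0.484 CPM in KO and 21.7, 9.24 and 10.6 CPM in control. Ttc30a1, of the intraflagellar transport machinery, had 0.546, 0.804 and 1.82 CPM in KO and 15.2, 9.45 and 13.7 CPM in control. Rnf138rt1 had 0.615, 0.439 and 0.242 CPM in KO and 10.5, 8.67 and 16.3 CPM in control; it is a retrotransposed copy of Rnf138, so reads may be split between the pair. The 15 lowest genes separated the groups by the rule that chose them.

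**Figure D1:**
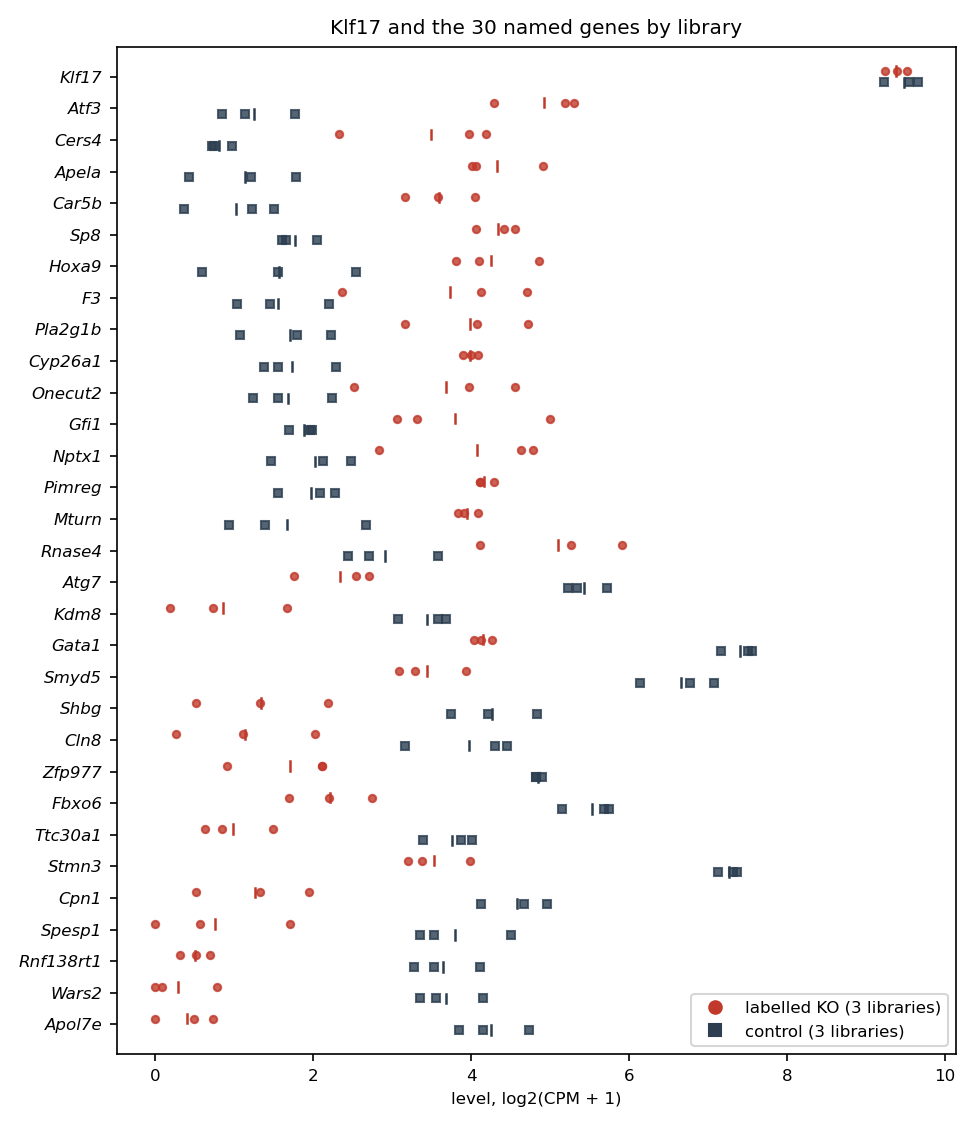
Levels of Klf17 and of the 15 highest and 15 lowest genes of the comparison, as log2(CPM + 1), one point per library (circles, KO; squares, control; 3 libraries each) with a short line at each mean. KO and control points of Klf17 overlap, between 596 and 805 CPM, while those of the other 30 genes are apart by the rule that chose them. Of all genes tested, 15.5% were higher and 20.7% lower in KO without overlap.

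The genes that rose most had low levels in control embryos. Atf3, a stress-induced bZIP transcription factor, had 18.6, 35.5 and 38.5 CPM in KO libraries, against 0.798, 2.42 and 1.196 CPM in control libraries (log2 fold change 4.38, SE 0.74, adjusted p = 0.00661). Apela, which encodes a secreted ligand of the apelin receptor, had 15.1, 29.0 and 15.7 CPM in KO and 2.45, 1.31 and 0.349 CPM in control (3.86, SE 0.65, adjusted p = 0.00661). Cers4, a ceramide synthase, had 4.03, 17.2 and 14.7 CPM in KO and 0.969, 0.683 and 0.648 CPM in control (3.95, SE 0.81, adjusted p = 0.0121). Cyp26a1, which degrades retinoic acid, had 15.0, 15.9 and 13.9 CPM in KO and 1.60, 3.89 and 1.94 CPM in control (2.59, SE 0.52, adjusted p = 0.0118). The KO libraries were level with each other for Cyp26a1, whereas KO replicate 1 was the lowest of its group for Atf3 and Cers4.

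Developmental transcription factors were among the 15 highest. Hoxa9, a homeobox factor, had 16.1, 27.9 and 13.02 CPM in KO and 0.513, 4.83 and 1.94 CPM in control. Onecut2, also a homeobox factor, had 4.71, 22.5 and 14.8 CPM in KO and 1.37, 3.73 and 1.94 CPM in control. Gfi1, a transcriptional repressor, had 31.1, 8.92 and 7.33 CPM in KO and 2.96, 2.89 and 2.24 CPM in control. Their adjusted p were 0.0346, 0.0372 and 0.0313. For Gfi1 the group mean rested on KO replicate 1, which was higher than either of the other KO libraries. Sp8, of the same family as Klf17, had 15.7, 22.5 and 20.3 CPM in KO and 2.05, 2.15 and 3.14 CPM in control (log2 fold change 2.99, SE 0.66, adjusted p = 0.0153).

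The other named genes that rose had varied roles. Car5b, a mitochondrial carbonic anhydrase, had 15.6, 10.97 and 7.93 CPM in KO and 0.285, 1.84 and 1.34 CPM in control. Pla2g1b, a secreted phospholipase, had 25.3, 15.8 and 7.99 CPM in KO and 3.71, 1.10 and 2.49 CPM in control. F3, tissue factor of the clotting cascade, had 4.17, 16.5 and 25.1 CPM in KO and 3.59, 1.05 and 1.74 CPM in control, so KO replicate 1 was just above the highest control library. Rnase4, a secreted ribonuclease, had 16.3, 59.1 and 37.6 CPM in KO and 4.45, 10.9 and 5.53 CPM in control; it shares its first exons with Ang, so reads there cannot be told apart. Nptx1, Pimreg and Mturn had log2 fold changes of 2.53, 2.50 and 2.45, with 6.15 to 26.5, 16.3 to 18.5 and 13.3 to 16.0 CPM in KO and 1.77 to 4.58, 1.94 to 3.83 and 0.912 to 5.38 CPM in control. Of all 30 genes, 30 lost their call without KO replicate 2, 9 without KO replicate 1, 8 without KO replicate 3, and 6, 11 and 16 without control replicates 1, 2 and 3, all with the direction kept.

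Promoters of the 3 lowest and 2 highest genes are shown because KLF factors bind GC-rich and CACCC elements near start sites. Each sequence is 300 bases from RefSeq (GRCm38.p6), from 250 before to 50 after a start in the RefSeq promoter table, read along the gene; for Apol7e, Wars2 and Cers4 that start lies inside the annotated gene span and not at its edge. The sequences are lower case, with capitals marking matches to CCNCNCCC on either strand. The positions are chr15:77698639-77698938 (+) for Apol7e, chr3:99140840-99141139 (+) for Wars2, chrX:163761283-163761582 (-) for Rnf138rt1, chr1:191183284-191183583 (-) for Atf3 and chr8:4493155-4493454 (+) for Cers4.
Apol7e: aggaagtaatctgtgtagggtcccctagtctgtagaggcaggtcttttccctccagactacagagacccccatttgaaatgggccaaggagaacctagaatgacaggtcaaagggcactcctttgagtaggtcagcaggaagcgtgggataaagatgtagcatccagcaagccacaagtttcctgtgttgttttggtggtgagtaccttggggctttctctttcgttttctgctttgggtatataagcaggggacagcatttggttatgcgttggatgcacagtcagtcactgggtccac
Wars2: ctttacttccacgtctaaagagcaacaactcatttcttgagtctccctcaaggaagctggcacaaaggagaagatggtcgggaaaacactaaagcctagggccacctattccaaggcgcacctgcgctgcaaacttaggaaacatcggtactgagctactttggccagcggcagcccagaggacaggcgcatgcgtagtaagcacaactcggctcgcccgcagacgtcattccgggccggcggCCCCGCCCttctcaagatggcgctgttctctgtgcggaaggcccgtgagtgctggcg
Rnf138rt1: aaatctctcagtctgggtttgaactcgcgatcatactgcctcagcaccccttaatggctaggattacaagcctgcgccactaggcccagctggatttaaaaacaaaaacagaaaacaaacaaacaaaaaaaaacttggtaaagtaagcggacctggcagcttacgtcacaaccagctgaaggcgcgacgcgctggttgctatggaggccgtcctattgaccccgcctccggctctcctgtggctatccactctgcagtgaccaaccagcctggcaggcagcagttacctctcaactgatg
Atf3: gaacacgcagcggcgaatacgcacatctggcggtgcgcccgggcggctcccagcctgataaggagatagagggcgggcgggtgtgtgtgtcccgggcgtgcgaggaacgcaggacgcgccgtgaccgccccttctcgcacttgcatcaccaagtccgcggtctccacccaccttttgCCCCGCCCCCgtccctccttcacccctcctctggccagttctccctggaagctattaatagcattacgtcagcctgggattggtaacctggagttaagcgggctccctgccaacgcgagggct
Cers4: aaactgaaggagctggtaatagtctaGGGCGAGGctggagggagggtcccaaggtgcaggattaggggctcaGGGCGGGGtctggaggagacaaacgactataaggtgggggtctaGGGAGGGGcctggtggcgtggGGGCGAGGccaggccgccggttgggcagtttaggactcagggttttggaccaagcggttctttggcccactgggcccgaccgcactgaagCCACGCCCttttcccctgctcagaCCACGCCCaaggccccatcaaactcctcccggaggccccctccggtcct
CCNCNCCC occurred 0, 1 and 0 times in the promoters of Apol7e, Wars2 and Rnf138rt1, and 2 and 6 times in those of Atf3 and Cers4. Over all genes with a promoter in the table, at least 1 match was found in 63.9% of 793 genes that fell in KO, in 68.1% of 204 that rose, in 65.9% of 12311 tested and in 49.1% of all 27025 promoters. CACCC, searched on both strands and able to overlap CCNCNCCC, was found in 56.4% of promoters of genes that fell, 63.2% of those that rose and 62.6% of those tested. These are counts of letters in a window and were given no test.

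Genes for assembling ribosomes were the list with the most falls. Of 97 ribosome biogenesis genes tested, 51 fell (52.6%, beside 6.31% of all genes tested) and 0 rose, with a median log2 fold change of -1.22. Their summed level was 11357, 10679 and 9911 CPM in KO libraries, 12118, 19092 and 11797 CPM in mKO libraries, 23748 and 24560 CPM in pKO libraries, and 18999, 21420 and 21262 CPM in control libraries. The 3 KO values lay below all control and pKO values, and 2 of the 3 mKO values lay just above them. Ddx18, an RNA helicase of the large subunit pathway, had 68.6, 91.7 and 80.4 CPM in KO and 258, 303 and 326 CPM in control (log2 fold change -1.88, SE 0.30, adjusted p = 0.00661). Sdad1, whose yeast counterpart acts in large subunit export, had 20.8, 29.3 and 32.0 CPM in KO and 139, 153 and 117 CPM in control (-2.31, SE 0.38, adjusted p = 0.00661). Pwp1, a nucleolar WD-repeat protein, had 52.8, 62.7 and 53.1 CPM in KO and 197, 285 and 269 CPM in control (-2.16, SE 0.37, adjusted p = 0.00663). Without KO replicate 1, 2 or 3 the members that fell numbered 13, 0 and 25, and without control replicate 1, 2 or 3 they numbered 43, 11 and 11, while the median stayed between -1.33 and -1.14.

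Part of the translation machinery fell as well. Of 52 translation factors tested, 20 fell (38.5%, beside 6.31% of all genes tested) and 0 rose (median -0.88). Eif3g, a subunit of initiation factor eIF3, had 45.6, 51.9 and 31.4 CPM in KO and 132, 183 and 174 CPM in control; Eif4h, a cofactor of the eIF4A helicase, had 12.8, 7.31 and 15.5 CPM in KO and 34.5, 56.5 and 54.1 CPM in control. Eef1d, of the elongation factor 1 exchange complex, had 53.2, 47.0 and 31.8 CPM in KO and 107, 132 and 125 CPM in control. All 3 passed the test, at adjusted p of 0.012, 0.0143 and 0.0144. Of 79 cytosolic ribosomal protein genes, 21 fell (26.6%) and 0 rose (median -0.78), and 76 of the 79 had a negative log2 fold change. Ribosomal protein genes have many processed pseudogenes, so the split of their reads is uncertain. Their summed level was 12307, 11759 and 7876 CPM in KO and 18796, 17287 and 17929 CPM in control. Without single KO or control libraries, 0 to 14 translation factors and 0 to 6 ribosomal protein genes fell.

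**Figure D2:**
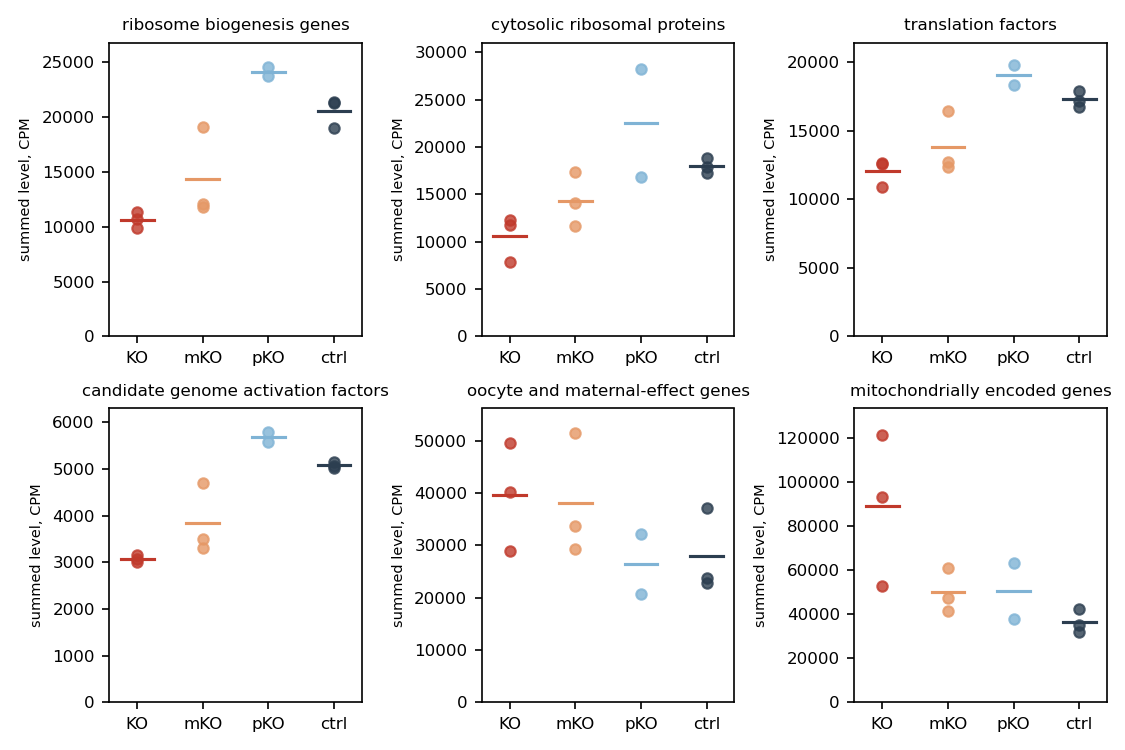
Summed level in CPM of 6 gene lists, one point per library and a line at each group mean (KO, mKO and ctrl, 3 libraries each; pKO, 2). Ribosome biogenesis genes lie between 9911 and 11357 CPM in KO, below 18999 to 21420 CPM in control, and mitochondrially encoded genes are higher in KO.

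RNA processing, protein turnover and DNA replication lists also held genes that fell, beside 6.31% of all genes tested. Of 42 proteasome genes 11 fell (26.2%, median -0.80), and of 68 spliceosome genes 12 fell (17.6%, median -0.71). Of 51 DNA replication genes 10 fell (19.6%, median -0.68), and of 88 genes of RNA polymerase II and its factors 13 fell (14.8%, median -0.51). Of 102 chromatin regulators 11 fell (10.8%) and 2 rose (1.96%, beside 1.82% of all genes tested), and in the other 4 lists 0 rose. Without KO replicate 2 no member of these lists was called. Psmd4, a ubiquitin receptor of the proteasome, had 48.6, 37.7 and 31.5 CPM in KO and 133, 173 and 190 CPM in control. Snrpa1, a U2 snRNP protein, had 71.4, 70.3 and 46.1 CPM in KO and 189, 221 and 208 CPM in control. Gins3, a subunit of the GINS complex of the replication fork, had 28.7, 28.5 and 27.2 CPM in KO and 122, 159 and 180 CPM in control. Med24, a Mediator subunit, had 24.5, 18.5 and 30.2 CPM in KO and 74.6, 123 and 130 CPM in control. Smarcb1, a core subunit of the BAF remodeller, had 22.95, 32.5 and 19.02 CPM in KO and 84.7, 92.9 and 86.3 CPM in control. These 5 genes had the smallest or nearly the smallest adjusted p of their lists, and their log2 fold changes ran from -2.45 for Gins3 to -1.72 for Snrpa1.

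Of 55 cell cycle genes 8 fell (14.5%, beside 6.31% of all genes tested) and 1 rose (1.82%, as over all genes). Without single KO or control libraries, 0 to 3 cell cycle genes fell. Aurka, a mitotic kinase, had 348, 178 and 244 CPM in KO and 700, 608 and 631 CPM in control (log2 fold change -1.33, adjusted p = 0.018). Cdk1, the kinase that drives entry into mitosis, had 405.9, 391.6 and 404.3 CPM in KO and 900, 724 and 739 CPM in control (-0.98, adjusted p = 0.0281). Of 40 genes for the unfolded protein response and heat shock 2 rose (5%), Atf3 among them, and 4 fell (10%). Hspa8, the constitutive HSP70, had 528, 577 and 574 CPM in KO and 1618, 1580 and 1606 CPM in control (-1.52, SE 0.30, adjusted p = 0.0113). Hsp90ab1, the constitutive HSP90, had 205, 285 and 194 CPM in KO and 528, 1167 and 1094 CPM in control (-2.03, adjusted p = 0.0194). Myc, a growth-promoting transcription factor, had 3.35, 6.36 and 5.21 CPM in KO and 31.1, 35.6 and 34.2 CPM in control (-2.76, adjusted p = 0.0149). Of 23 immediate early genes 3 rose (13.04%, beside 1.82% of all genes tested), Atf3 and Klf10 among them, and 1 fell, Myc (4.35%, beside 6.31%). Without single KO or control libraries, 0 to 3 of them rose and 0 to 1 fell. Of 27 p53 targets 2 rose and 2 fell (7.41% each, beside 1.82% risen and 6.31% fallen of all genes tested). Perp, an apoptosis-linked membrane protein, had 8.95, 4.31 and 11.02 CPM in KO and 1.25, 1.26 and 1.10 CPM in control.

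**Figure D3:**
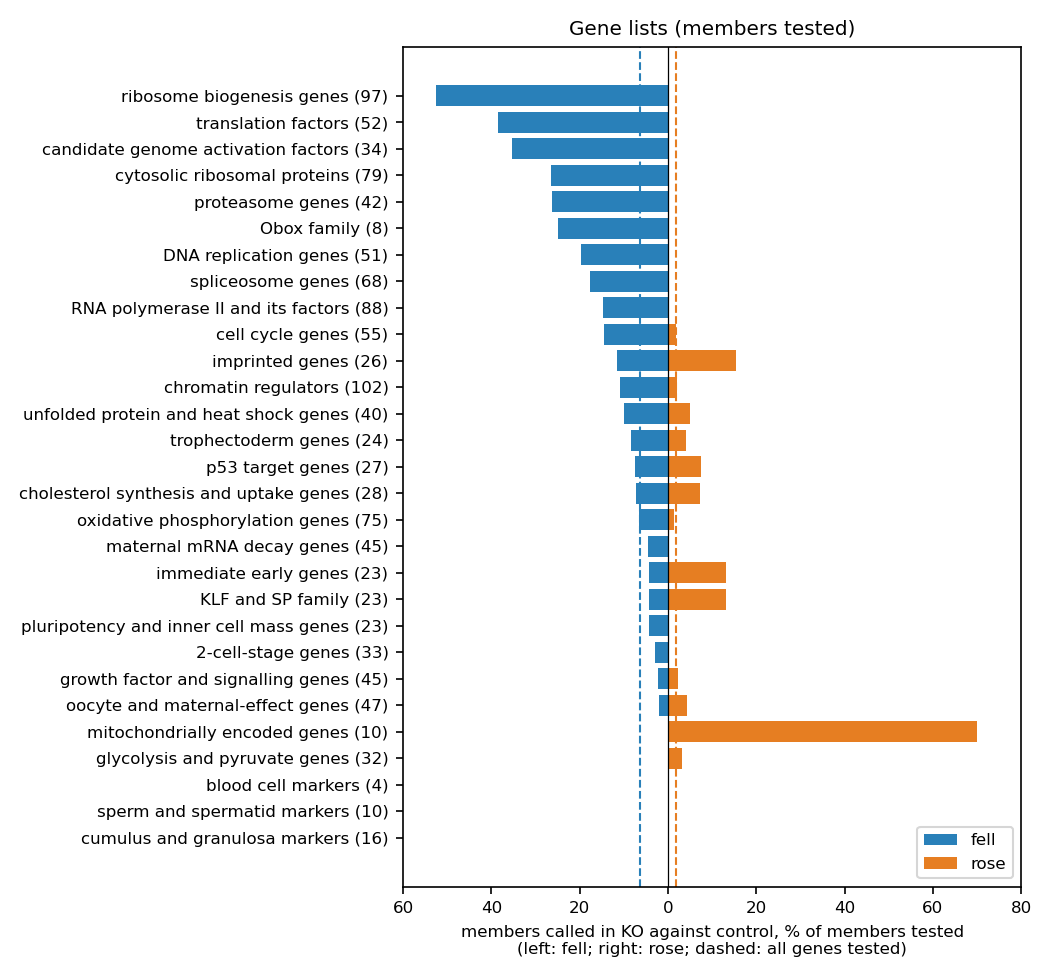
Share of the tested members of each of 29 gene lists that fell (left) or rose (right) in KO against control, in %, with the number of members tested in parentheses. Dashed lines give all genes tested, 6.31% fallen and 1.82% risen; ribosome biogenesis genes fell most often, 52.6%, and mitochondrially encoded genes rose most often, 70.0%.

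Of 34 candidate genome activation factors tested, 12 fell (35.3%, beside 6.31% of all genes tested) and 0 rose (median -0.63). Without single KO or control libraries, 0 (without KO replicate 2) to 8 fell. Dppa2, a chromatin protein that acts upstream of Dux in mouse cells, had 198, 248 and 195 CPM in KO and 1006, 554 and 591 CPM in control (log2 fold change -1.75, SE 0.35, adjusted p = 0.0114). Tead4, the TEAD factor needed for trophectoderm, had 4.92, 2.85 and 3.63 CPM in KO and 32.4, 36.5 and 44.5 CPM in control (-3.31, SE 0.64, adjusted p = 0.0108). Obox6, of the Obox homeobox family, had 334, 340 and 279 CPM in KO and 1307, 812 and 790 CPM in control (-1.61, SE 0.31, adjusted p = 0.0108). Obox8 had 71.3, 61.2 and 49.4 CPM in KO and 347, 225 and 213 CPM in control (-2.11, SE 0.36, adjusted p = 0.00663). The other 6 of 8 Obox family genes tested did not pass, so 2 fell (25%) and 0 rose. The median over the 8 was 0.21, with 4 above 0 and 4 below. Without single KO or control libraries, 0 to 2 Obox genes fell. Some Obox genes are near-identical copies, so the split of reads among such copies is uncertain. Among 33 genes typical of the 2-cell stage 1 fell (3.03%), 0 rose and the median was 0.51, or -0.06 with the mitochondrial share as a covariate. The one that fell was Sp110, a nuclear body protein, with 97.3, 79.0 and 93.3 CPM in KO and 323, 231 and 323 CPM in control. Sp110 was not particular to the 2-cell stage in the wild-type libraries of the series, which were normalised separately. It averaged 367 CPM in unfertilised (MII) oocytes, and 494 and 252 CPM at 6-12 and 30-36 hours post insemination.

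Of 23 pluripotency and inner cell mass genes 1 fell (4.35%, beside 6.31% of all genes tested) and 0 rose. The one that fell was Spic, an ETS factor, with 163, 154 and 111 CPM in KO and 756, 436 and 460 CPM in control (log2 fold change -1.95, SE 0.33, adjusted p = 0.00661). Of 24 trophectoderm genes Tead4 and Tfap2c, an AP-2 factor, fell (8.33%) and Fgfr2 rose (4.17%, beside 1.82% of all genes tested). The list's median log2 fold change was 1.00, with 17 members above 0. Tfap2c had 15.9, 17.7 and 19.7 CPM in KO and 43.2, 54.9 and 52.3 CPM in control. Among 47 genes of the oocyte and maternal effect, 2 rose (4.26%, beside 1.82% of all genes tested) and 1 fell (2.13%, beside 6.31%). Their median was 0.43 and 37 had a positive log2 fold change. With the mitochondrial share as a covariate the median was -0.01. Bmp15, an oocyte growth factor, had 2056, 2478 and 2180 CPM in KO and 1382, 944 and 988 CPM in control (1.02, SE 0.28, adjusted p = 0.0346). Zp3, a zona pellucida protein, had 41.7, 41.8 and 34.7 CPM in KO and 92.2, 114 and 83.5 CPM in control (-1.29, SE 0.30, adjusted p = 0.0181). Of 45 genes of maternal mRNA decay 2 fell (4.44%, beside 6.31% of all genes tested) and 0 rose. Of these 2, Ythdf2, an m6A reader, had 285, 245 and 260 CPM in KO and 728, 742 and 687 CPM in control. The other, Xrn2, a nuclear exonuclease, had 34.3, 41.0 and 58.0 CPM in KO and 115, 122 and 114 CPM in control.

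Of 10 mitochondrially encoded genes tested 7 rose (70.0%, beside 1.82% of all genes tested) and 0 fell (median 1.16). The rises numbered 0 without KO replicate 1, KO replicate 2, control replicate 2 or control replicate 3, and 3 without control replicate 1. mt-Nd1, a complex I subunit, had 34031, 26689 and 13999 CPM in KO and 9012, 7148 and 8621 CPM in control (log2 fold change 1.59, SE 0.32, adjusted p = 0.0121). KO replicate 1 was highest and KO replicate 3 lowest for mt-Nd1 and for the mitochondrial share. Of 75 nuclear genes of oxidative phosphorylation 5 fell (6.67%, beside 6.31% of all genes tested) and 1 rose (1.33%, beside 1.82%). Their median was -0.55, and 55 lay below 0. Uqcrc1, a core subunit of complex III, had 14.7, 7.61 and 20.3 CPM in KO and 57.0, 79.8 and 83.6 CPM in control (-2.37, SE 0.59, adjusted p = 0.0251). The mitochondrial share moved with the groups for every gene list above; with it as a covariate the median of ribosome biogenesis genes was -0.86 and that of cytosolic ribosomal proteins -1.43, with no member called. Its part in these results was otherwise not tested.

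Of 23 KLF and SP genes tested, Klf17 included, 3 rose (13.04%, beside 1.82% of all genes tested) and 1 fell (4.35%, beside 6.31%), with a median log2 fold change of 0.18. The rises numbered 1 without KO replicate 1 or 3 and 0 without KO replicate 2 or control replicate 2 or 3. Besides Sp8, Klf6 had 32.6, 20.8 and 33.6 CPM in KO and 8.61, 9.19 and 5.78 CPM in control (log2 fold change 1.88, SE 0.45, adjusted p = 0.0204), and Klf10 had 40.4, 29.4 and 50.4 CPM in KO and 15.2, 11.8 and 15.8 CPM in control (1.49, SE 0.35, adjusted p = 0.0193). Klf9 fell, with 11.1, 8.26 and 10.1 CPM in KO and 20.6, 25.2 and 23.01 CPM in control (-1.23, SE 0.37, adjusted p = 0.0463). Whichever KO or control library was left out, 0 members of the list fell. The number was also 0 with DESeq2 size factors, total count scaling or reads thinned to one depth, and 2 in the fit of the 6 libraries alone. Sp8, Klf6, Klf10 and Klf9 are zinc finger regulators, and Klf6 and Klf10 are induced early by growth signals.

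Most genes that fell in KO were ones whose levels rose in wild-type embryos between 18-24hpi and 30-36hpi. The series also holds 30 wild-type libraries labelled with 4SU, in 10 groups of 3 that cover MII oocytes and windows of hours post insemination (hpi); they were normalised separately, and each step between windows was tested in a fit of these alone. Of the 1054 genes that fell in KO, 774 (73.4%) rose in wild-type embryos at 24-30hpi against 18-24hpi, beside 22.1% of the 15388 genes tested in both tables, and 897 (85.1%) rose at 30-36hpi against 24-30hpi, beside 21.9%. Only 4 fell in the last of these steps. Of 293 genes that rose in KO and were tested in both, 118 (40.3%) fell at 24-30hpi against 18-24hpi, beside 24.8% of all, and 206 (70.3%) fell at 30-36hpi against 24-30hpi, beside 29.6%. All 15 of the lowest genes named above rose at 30-36hpi against 24-30hpi. Stmn3 averaged 3.25, 28.7 and 149 CPM at 18-24, 24-30 and 30-36hpi, Gata1 5.51, 31.5 and 82.3 CPM, and Tead4 0.787, 9.17 and 50.7 CPM. Among the genes that rose in KO, Bmp15 averaged 4620, 1655 and 308 CPM over the same windows, and Atf3 4.07, 1.53 and 0.237 CPM.

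The windows were also read the other way, from genes with large steps. Of 937 genes that rose at least 4-fold at 24-30hpi, 219 (23.4%) fell in KO and 2 rose, with a median log2 fold change of -1.04. Of 438 that rose at least 4-fold at 30-36hpi, 108 (24.7%) fell and 0 rose (median -1.40). Of 492 that fell at least 4-fold at 24-30hpi, 10 (2.03%) rose in KO and 2 fell (median 0.59). Of 1535 that fell at least 4-fold at 30-36hpi, 97 (6.32%) rose, 1 fell and the median was 0.94. Over all 15388 genes 6.85% fell, 1.90% rose and the median was 0.02. Most genes with a large step did not pass the test in KO.

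**Figure D4:**
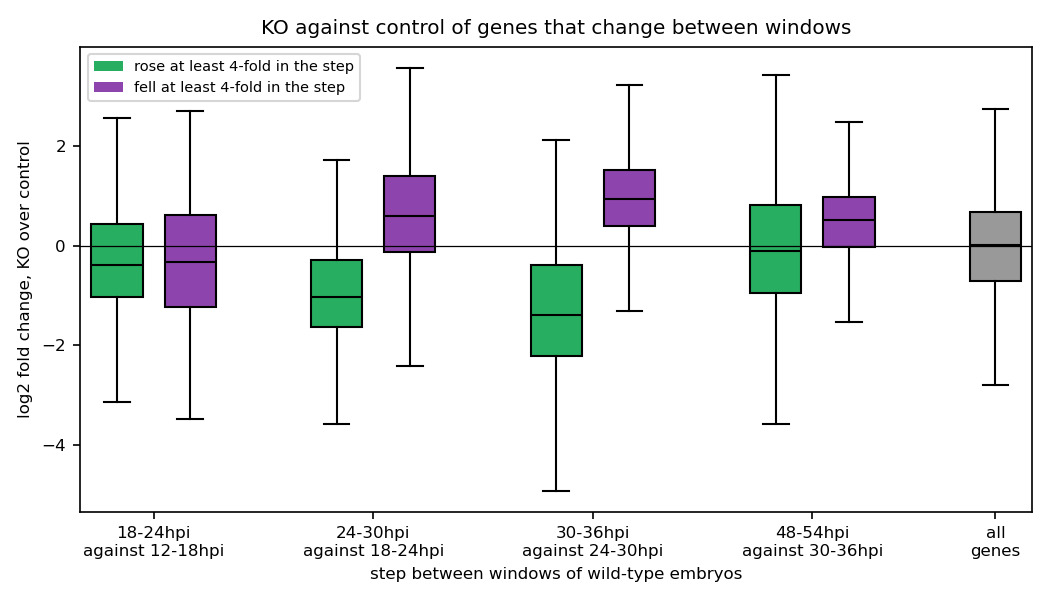
Log2 fold change of KO over control for genes that rose (green) or fell (purple) at least 4-fold in each step between windows of wild-type embryos, and for all genes (grey). Boxes give the quartiles and median and whiskers reach the last gene within 1.5 interquartile ranges; medians were -1.04 and -1.40 for genes that rose at 24-30hpi and 30-36hpi, and 0.94 for genes that fell at 30-36hpi.

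As a whole profile, each KO library was most like the 24-30hpi window. Pearson's r across genes with that window's mean was 0.940, 0.932 and 0.934 in KO libraries, against 0.870, 0.863 and 0.878 with the 30-36hpi window. In control libraries r was 0.948, 0.932 and 0.933 with 24-30hpi and 0.946, 0.963 and 0.960 with 30-36hpi. So 2 of 3 control libraries were nearest to 30-36hpi, and control replicate 1 was about as near to either. All pairs share the genes and their abundance, and the hours at which the genotype libraries were collected are not given in the labels, so stage and genotype cannot be told apart in these values.

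**Figure D5:**
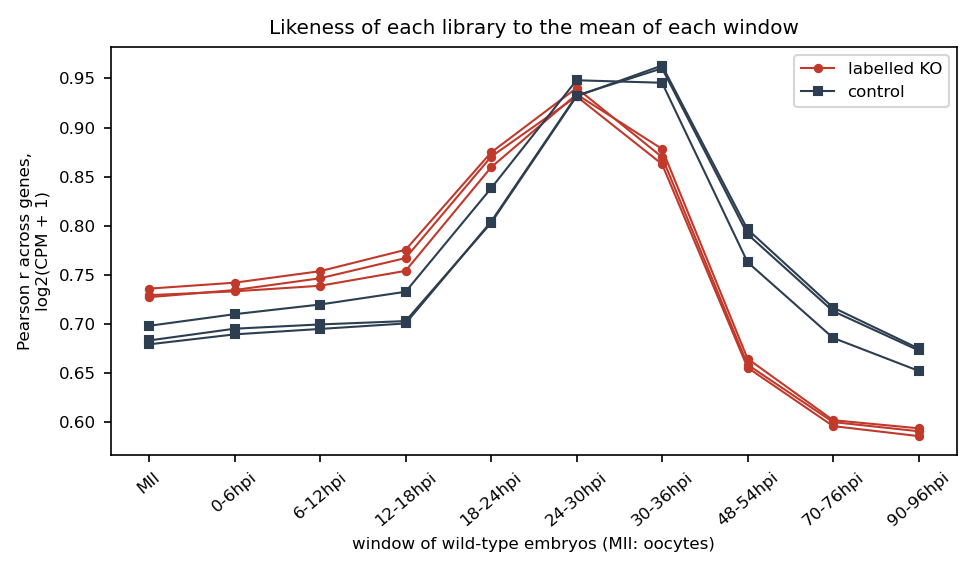
Pearson's r across genes of log2(CPM + 1) between each KO (circles) or control (squares) library and the mean of each window of wild-type libraries, over 15388 genes. KO libraries peak at 24-30hpi, at 0.932 to 0.940, and stand at 0.863 to 0.878 at 30-36hpi, where control libraries stand at 0.946 to 0.963.

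The same genes were read in the mKO and pKO libraries, whose levels do not enter the KO against control fold change, although their spread enters the shared estimate behind the calls. No gene passed the test between mKO and pKO (0 called by edgeR, 1919 at an unadjusted p below 0.05, 89 higher and 41 lower by DESeq2), and 75 higher and 408 lower passed without mKO replicate 2. Of the 1054 genes that fell in KO, 1038 (98.5%) were lower in mKO than in pKO, beside 49.0% of all genes tested, with a median log2 fold change of -0.86. Of the 304 that rose, 276 (90.8%) were higher in mKO, beside 50.8%, with a median of 0.65. Without mKO replicate 1, which stood apart, the shares were 91.9% and 81.9% and the medians -0.53 and 0.42. The mKO libraries differed among themselves: against the pKO mean, the median difference of the genes that fell was -1.47, -0.28 and -0.95 on the log2 scale in mKO replicates 1, 2 and 3. Stmn3 showed this order too, with 9.65, 72.5 and 46.1 CPM in mKO libraries, against 195 and 208 CPM in pKO libraries. Likeness to the windows of wild-type embryos differed as well. In mKO replicates 1, 2 and 3 r was 0.951, 0.923 and 0.937 with 24-30hpi, and 0.881, 0.946 and 0.915 with 30-36hpi. In pKO libraries r was 0.937 and 0.904 with 24-30hpi, and 0.960 and 0.948 with 30-36hpi. The part of stage in the mKO and pKO values was not tested.

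KO was set directly against the single-parent groups in the same fit. Against pKO, 472 genes were higher and 1615 lower in KO (12.5% of genes tested). The counts were 65 and 517 without pKO replicate 2, and 186 and 994 without pKO replicate 1. They were 76 and 424 without KO replicate 2, and 1158 and 2094 without mKO replicate 1. With the mitochondrial share as a covariate 0 genes passed against pKO, and 2414 had an unadjusted p below 0.05. Against mKO, 0 genes passed by edgeR, with 2220 at an unadjusted p below 0.05 and 106 higher and 230 lower by DESeq2, and 258 higher and 786 lower in KO passed without mKO replicate 1. Gata1 had 18.4, 149 and 50.4 CPM in mKO libraries and 103 and 225 CPM in pKO libraries, beside 15.4 to 18.3 CPM in KO, so that mKO replicate 1 was at the KO level and mKO replicate 2 at that of pKO. With no filter on low counts, edgeR called 96 genes higher and 447 lower in KO than in mKO, so the count of 0 depended on the filter, the tool and mKO replicate 1.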

How the data were processed

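Counts of reads per gene in each library were deposited by the authors as whole numbers; 1 library of the window table holds 1 value that is not whole, in a damaged last record that was left out, so the authors' values of that library are listed as estimated counts, all whole among those used. Trim Galore 0.6.10, STAR 2.7.10a and SAMtools 1.12 and the builds mm10 and GRCm38 are named in the submitters' processing notes; the read counter, its strand setting and any parting of reads by T-to-C changes are not given in the sources used here. Gene positions come from RefSeq (GRCm38.p6), matched on symbol for 15463 of 16694 genes tested.

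The 11 genotype libraries were fitted together with edgeR 4.0.16 in R 4.3.3 (TMM, filterByExpr with a minimum count of 10, robust quasi-likelihood F-test), so that the 4 groups share 1 estimate of the spread. KO was contrasted with control, two-sided, with Benjamini-Hochberg adjustment over 16694 genes. Fold changes are KO over control, log2, and CPM are TMM-scaled. The exceptions are the sums and levels of cumulus, sperm and blood cell markers in the genotype libraries, which are shares of the deposited totals. The window table was fitted likewise over 30 libraries. DESeq2 1.42.0, other scalings, filters, fits and left-out libraries were tried. The code was tested on simulated data. Figures used matplotlib 3.10.9, and tables Python 3.11.15.

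The genes and lists were chosen with earlier results of these data known. Named are Klf17, the 15 highest and 15 lowest fold changes among genes called, with no overlap between groups, at least 10 CPM in the higher group and a gene-like symbol, and up to 3 members per list with the smallest adjusted p and at least 5 CPM. Markers of cumulus, sperm and blood cells were among the 29 lists. Replicate numbers were not taken to pair libraries.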

Additional observations from a re-analysis of the deposited data

How the results depend on the processing

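The 1358 genes called became 2237 with no filter on low counts, 3166 in a fit of the 6 libraries alone, 2576 by DESeq2's Wald test and 0 with the mitochondrial share as a covariate; leaving out single libraries gave 0 to 2425. The share of rises among calls was 33.0% with no filter. With the replicate number as a block 2064 genes were called, of which 1345 were among the 1358; deviations of same-numbered KO and control libraries correlated at 0.08, -0.03 and 0.10, and KO replicate 2 correlated best with control replicate 1, so the numbers were not taken as pairs. The log2 fold change of Klf17, KO over control, was 0.35 with the mitochondrial covariate and 0.0012 without KO replicate 2, the top of a range down to -0.21 over single libraries left out. Against mKO it was close to 0 and turned negative, at -0.055 with total count scaling, -0.028 with no filter and -0.011 with reads thinned to one depth, and without single libraries it ran from -0.32 to 0.21. With the mitochondrial covariate Kdm8 was at 0.48, Oosp3 at -0.30 and mt-Nd2 at -0.17. Reads of mt-Nd2 are part of that covariate, so its value there cannot be read as a reversal. The genes that rose had a median step at 24-30hpi of 0.39 without control replicate 2, over the 32 then called, against -0.56 with all libraries and -0.75 at the low end without single libraries. The cause of these shifts was not tested. The covariate fit kept the 11 libraries and 16694 genes of the main fit, while fits without single libraries held fewer libraries. All 30 named genes kept their call under DESeq2 size factors, total count scaling, thinning and the 6-library fit, and 29 under the block. Alternatives that left out mKO or pKO libraries were chosen after seeing the data. Groups of 3 limit what a test can show; thinning all libraries to one depth gave 1318 calls.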

Other observations

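Sterol and imprinted genes were not described above. Of 28 genes of cholesterol synthesis and uptake 2 rose and 2 fell (7.14% each, beside 1.82% risen and 6.31% fallen of all genes tested). Msmo1, a sterol C4-methyl oxidase, had 137, 132 and 122 CPM in KO libraries, against 45.1, 27.7 and 47.0 CPM in control libraries (edgeR log2 fold change 1.70, SE 0.31, adjusted p = 0.0086). Fdps, farnesyl diphosphate synthase, had 11.5, 16.0 and 16.5 CPM in KO and 36.4, 37.7 and 33.7 CPM in control. Of 26 imprinted genes 4 rose (15.4%) and 3 fell (11.5%). Plagl1, a zinc finger growth suppressor, had 14.7, 91.8 and 69.3 CPM in KO and 11.001, 10.6 and 15.0 CPM in control, so KO replicate 1 lay below the highest control library. Ube3a, a ubiquitin ligase, had 52.7, 43.2 and 61.5 CPM in KO and 202, 148 and 151 CPM in control.

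Rnf138rt1, singled out after its values were seen, was low in every group labelled with a Klf17 mutation: 0.242 to 0.615 CPM in KO, 0.103 to 1.67 CPM in mKO and 1.02 to 3.12 CPM in pKO, against 8.67 to 16.3 CPM in control. Klf17 itself was lowest in mKO replicate 1, at 359 CPM, among the 11 libraries.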
